A study of Homo sapiens with 24 samples.

Results

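The extracellular matrix genes examined here are the collagen chains (symbols COL, a number, A and a number), the laminin alpha, beta and gamma chains, and FN1, LUM, DCN, SPARC, FBN1, POSTN, TNC, LOX, VCAN and BGN. Chosen by symbol alone, they come to 66 of the 26485 genes counted. Their RNA was measured by sequencing in SH-SY5Y, a long-established cell line from a human neuroblastoma, in 8 groups of 3 libraries. At 4 h there were untreated cells (4 h control) and cells given copper chloride (CuCl2, called copper here). At 24 h there were untreated cells (24 h control), cells given the copper chelator Dextran-Catechin (DC), the polyamine copper chelator abbreviated TEPA, interferon-gamma (IFN), DC plus IFN, or TEPA plus IFN. The study asked what regulating copper does in neuroblastoma cells. All groups share the one cell line, the labels state no dose, and whether a group's 3 libraries are separate cultures is not stated, so p-values measure only the spread between these libraries.

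Collagens are triple helices of 3 chains. Fibrillar collagens build fibers, type IV collagen forms the network of basement membranes, and the smaller FACIT and transmembrane collagens sit on fibers or in the cell membrane. Laminins are trimers of an alpha, a beta and a gamma chain that anchor cells to the basement membrane. Fibronectin (FN1) and tenascin-C (TNC) are glycoproteins of the provisional matrix. Versican (VCAN), decorin (DCN), lumican (LUM) and biglycan (BGN) are proteoglycans, fibrillin-1 (FBN1) forms microfibrils, and SPARC binds collagen. Lysyl oxidase (LOX) is a copper-dependent enzyme that starts the crosslinking of collagen and elastin. In neuroblastoma, abundant matrix is known mainly from stromal cells and from mesenchymal-type tumor cells.

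Library totals ran from 24569980 to 35372442 counts. Levels are given as CPM, the read count relative to the scaled library total (in edgeR's usual unit), and comparisons as log2 fold changes with their standard error (SE) from edgeR's quasi-likelihood test. A gene is called when its p, adjusted by Benjamini-Hochberg over the 14654 genes with enough counts to test, is under 0.05. Even within a group, libraries favoured GC-rich or GC-poor genes to different degrees. As a measure of this, the median log2 deviation of genes over 60% GC, less that of genes under 40% GC (the GC difference), was -1.337 in 4 h control library 1 and 1.382 in library 3. Its group mean was -0.71 ± 0.31 (SD, n = 3) in the 24 h control and 0.46 ± 0.53 with IFN. All comparisons were therefore also fitted with each library's GC trend removed. Markers of the line's own adrenergic type were abundant, with means of 349 CPM for HAND2, 389 for ISL1 and 219 for DBH, although TH stood at 0.00688 CPM. Of the mesenchymal markers, the regulator PRRX1 had 0.0028 CPM, while VIM had 1183, NOTCH2 196, TWIST1 97.9, YAP1 61.5, SNAI2 14.4 and CD44 11. The Schwann cell regulator SOX10 had 0.00838 CPM, with PMP22 of the same list at 56.8, and the endothelial genes PECAM1, CDH5 and CLDN5 0.00656, 0.00588 and 0.00424. PDGFRA, often used as a fibroblast marker, stood at 239 CPM. The other fibroblast markers that are not matrix genes were lower. PDGFRB had 57.8 CPM, THY1 36.9, ACTA2 9.11, S100A4 3.42, FAP 1.2 and TAGLN 0.873. In bulk RNA, fewer cells of a type and less RNA per cell cannot be told apart.

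Of the 66 genes, 38 passed the filter on low counts and were tested, and 28 did not. The tested genes were 6 of 11 fibrillar collagens, 9 of 17 basement membrane and network collagens (types IV, VI, VII, VIII, X, XV and XVIII), 7 of 16 FACIT and transmembrane collagens, 7 of 12 laminin chains and 9 of 10 other matrix proteins. No count at all was found for COL4A5, COL5A3, COL20A1, COL25A1 and POSTN, the periostin gene. At the edge of the filter, COL22A1 passed with 121 counts over the 24 libraries, through the groups where it was higher, and LAMB4 did not pass with 173.

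The most abundant matrix transcripts were VCAN at a mean of 937 CPM, LAMB1 at 659.5, FN1 at 546, LAMC1 at 467 and COL3A1 at 315. They were followed by FBN1 at 164 CPM, LUM at 155, SPARC at 118, TNC at 87.2, DCN at 50.7, COL4A1 at 49.3, LAMA1 at 28.8, COL4A2 at 24.2, LAMB2 at 17.6 and LOX at 16.6. Per kb of transcript, the scale on which genes can be compared, LAMB1 led with 114 CPM per kb, before VCAN with 74.2, FN1 with 61.3, LAMC1 with 59.2, COL3A1 with 56.8 and LUM with 51.4. The chains of type I collagen, the main fibrillar collagen of fibroblasts, were far below COL3A1 per kb, with 0.494 for COL1A1 and 0.313 for COL1A2. Among laminins the beta-1 and gamma-1 chains stood well above every alpha chain, of which LAMA1 reached 2.98 CPM per kb, LAMA4 2.46, LAMA5 0.632 and LAMA3 0.23.

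**Figure D1:**
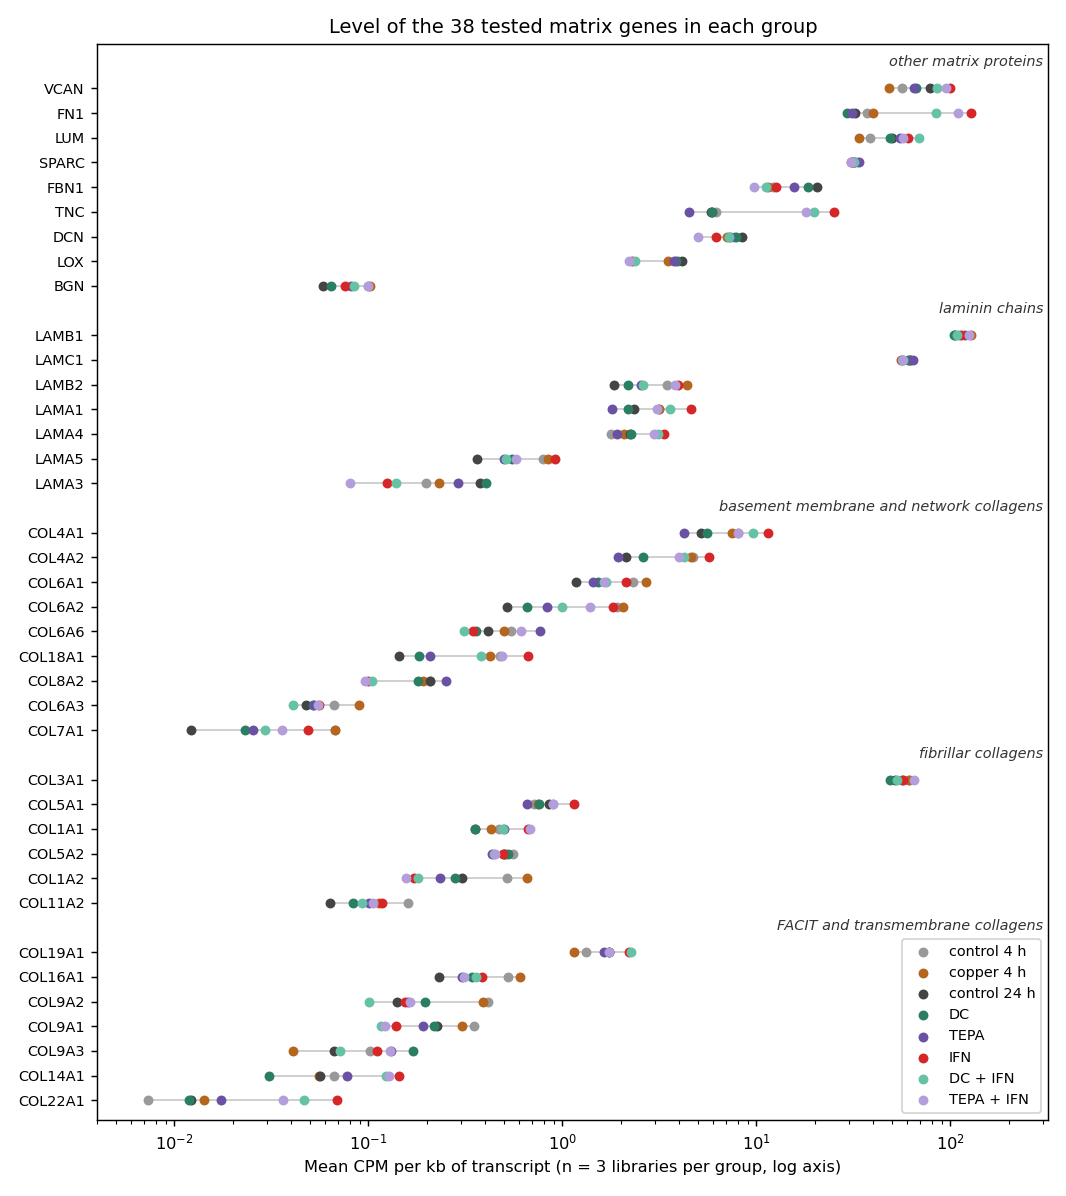
Mean CPM per kb of transcript (log axis) of the 38 tested matrix genes in each of the 8 groups, sorted by family, with a grey line from the lowest to the highest group. LAMB1, VCAN, FN1, LAMC1, COL3A1 and LUM lead, and FN1 and TNC have IFN groups set apart to the right.

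The summed level of the 66 genes was 3446 ± 299 CPM (SD, n = 3) in the 24 h control, 3208 ± 199 with DC and 3326 ± 224 with TEPA. With IFN it was 4769.7 ± 256 CPM, with DC and IFN 4079 ± 87.8, and with TEPA and IFN 4493 ± 166. Every library with IFN, from 4003 to 5057 CPM, lay above every library without it, the highest of which was 3760. Without FN1, TNC and VCAN, which were left out after their values were seen, the sum was 2120 ± 155 CPM in the 24 h control and 2190 ± 167 with IFN. The larger part of the difference in summed level therefore lay in these 3 transcripts.

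In the IFN comparison, 12 of the 38 tested genes were called, 8 higher and 4 lower, where 18.8% of all tested genes were called (10% higher and 8.8% lower). With IFN added to DC, against DC alone, 9 were called, 7 higher and 2 lower, beside 9.82% of all genes (6.16% higher and 3.66% lower). With IFN added to TEPA, against TEPA alone, 10 were called, 6 higher and 4 lower, beside 14.2% of all genes (7.28% higher and 6.89% lower). COL22A1 is among those called higher with IFN and with IFN in DC, and it passed the filter on low counts only through libraries with IFN, so that 11 and 8 calls are free of that choice. By the correlation rule given below, replicate numbers were taken to pair libraries for IFN in TEPA. With a replicate block, shared by all 24 h groups, 13 were called there beside 39.4% of all genes. The block added COL4A2, COL18A1 (1.39 ± 0.51, adjusted p = 0.0404) and COL5A1, a minor fibrillar chain (0.44 ± 0.15, adjusted p = 0.0271). These 3 comparisons share no library. FN1, TNC, COL4A1, LAMA1 and LAMA4 were called higher in all 3 of them, and LOX and LAMA3 lower in all 3, beside 761 and 450 of the 14654 genes. Of the 38 genes, 32 had the same sign in all 3, and of all tested genes 11682 did. Groups without overlap were found for 26, 17 and 13 of the 38 genes, beside 57.1%, 32.1% and 29.8% of all tested genes. The median log2 fold change of the 38 genes was 0.40, 0.14 and 0.14, beside 0.01, 0.01 and 0.00 for all tested genes. With the GC trend removed it was -0.05, -0.05 and -0.14, beside -0.09, -0.08 and -0.08. The matrix genes with a difference above 0 then numbered 18, 15 and 15, where they had been 27, 24 and 27.

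Before the values of FN1, TNC and LOX, 2 glycoproteins and the copper-dependent enzyme among the genes called in all 3 IFN comparisons, their upstream promoter sequence is shown from RefSeq (GRCh38.p14), since this is the DNA just before the transcripts that were counted. Each runs 5′ to 3′ on the gene's own strand, which is the minus strand for all 3, from 250 bases before the RefSeq start and ends where the outermost annotated transcript begins. They lie at chr2:215436173-215436318 for FN1, chr9:115118258-115118407 for TNC and chr5:122078361-122078509 for LOX. Capitals mark the cAMP response element TGACGTCA.
FN1: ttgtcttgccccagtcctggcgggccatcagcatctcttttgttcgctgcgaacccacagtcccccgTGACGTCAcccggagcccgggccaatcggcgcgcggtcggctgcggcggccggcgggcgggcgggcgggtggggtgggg
TNC: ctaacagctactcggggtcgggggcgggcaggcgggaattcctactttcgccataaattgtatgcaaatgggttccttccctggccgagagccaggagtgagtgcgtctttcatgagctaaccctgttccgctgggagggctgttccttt
LOX: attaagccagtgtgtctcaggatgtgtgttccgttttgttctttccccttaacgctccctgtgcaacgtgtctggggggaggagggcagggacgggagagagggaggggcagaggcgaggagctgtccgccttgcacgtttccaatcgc
The element of FN1 starts 183 bases before the start site, and 1.85% of 35116 promoter windows of 300 bases hold it on either strand. Such windows were found for 27 of the 38 tested genes, and FN1 was the only one of the 27 with this element. TTCNNNGAA, the pattern of interferon-gamma activated sites, was in 2 of the 27 windows (COL7A1 and LAMB2) and in 7.66% of all, with both strands searched. The pattern of interferon-stimulated response elements, searched as GAAA, 2 bases of any kind and GAAA, was in 0 of the 27 and in 3.57% of all. TATAAA was in 3 of the 27 (COL6A2, COL6A6 and COL7A1) and in 11.5% of all. Neither interferon pattern was in the 300-base windows of FN1, TNC and LOX.

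FN1 encodes fibronectin, the main adhesive glycoprotein that integrins bind (chromosome 2, 215360440 to 215436172, minus strand). Its level in the 24 h control libraries was 276, 278 and 309 CPM, and with IFN it was 1115, 1198 and 1077 CPM. Every IFN library was thus far above any control library. FN1 rose by 1.97 ± 0.08 (log2, SE; 3.93-fold, adjusted p = 2.6e-13). The DC libraries held 268, 266 and 252 CPM, and the libraries with DC and IFN 770, 683 and 805, a rise of 1.52 ± 0.08 (adjusted p = 1.61e-11). With TEPA there were 267, 283 and 279.8 CPM, and with TEPA and IFN 906, 1002 and 1009.7, a rise of 1.81 ± 0.08 (adjusted p = 1.06e-12). The 4 h libraries, with and without copper, lay between 300.4 and 376 CPM. FN1 was called in all 3 comparisons under every alternative tried, with log2 fold changes from 1.41 to 2.02.

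TNC encodes tenascin-C, a matrix glycoprotein of remodeling tissue (chromosome 9, 115019578 to 115118257, minus strand). In the 24 h control it stood at 32.4, 64.1 and 36.7 CPM, and with IFN at 195, 197 and 187. The groups did not overlap, and control library 2 was the highest of its group, as library 2 was also with DC (36.7, 69 and 29.7 CPM) and with TEPA (22.5, 59.7 and 21.2 CPM). Those are the libraries with the highest GC difference of their groups, at -0.37, 0.2 and 0.635. TNC rose by 2.12 ± 0.37 (log2, SE) with IFN (adjusted p = 0.000392), by 1.73 ± 0.37 in DC (adjusted p = 0.00314) and by 2.01 ± 0.37 in TEPA (adjusted p = 0.000766). The call held in each under every alternative tried. Removing the GC trend gave rises of 1.76, 1.54 and 1.79. DEC1, which lies across TNC on the other strand, had 0.00947 CPM.

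VCAN encodes versican, a large chondroitin sulfate proteoglycan. With TEPA its libraries held 889.8, 678 and 889 CPM, and with TEPA and IFN 1237, 1184 and 1169, without overlap. This was a rise of 0.55 ± 0.14 (adjusted p = 0.0118). In the other 2 IFN comparisons VCAN was not called, with log2 differences of 0.34 (95% interval 0.04 to 0.64, adjusted p = 0.0909) and 0.36 (0.07 to 0.66, adjusted p = 0.129). After removal of the GC trend it was called in all 3, at 0.44, 0.37 and 0.62.

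Of the other proteoglycans and glycoproteins, none was called with IFN. LUM, which encodes the collagen-binding proteoglycan lumican, had 156, 133 and 160 CPM in the 24 h control and 177, 173 and 195 with IFN. These groups did not overlap, yet the log2 difference of 0.28 had a 95% interval of -0.12 to 0.68 (adjusted p = 0.252). LUM without the GC trend was called higher in all 3 IFN comparisons, by 0.48, 0.57 and 0.23. SPARC was at 111, 117 and 124 CPM in the control and at 104, 124 and 112 with IFN, a log2 difference of -0.05 (95% interval -0.22 to 0.12). DCN, the decorin gene, had 65.9, 38.4 and 75.5 CPM in the control and 44.3, 55 and 32.8 with IFN, and its interval was wide, from -1.18 to 0.29.

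**Figure D2:**
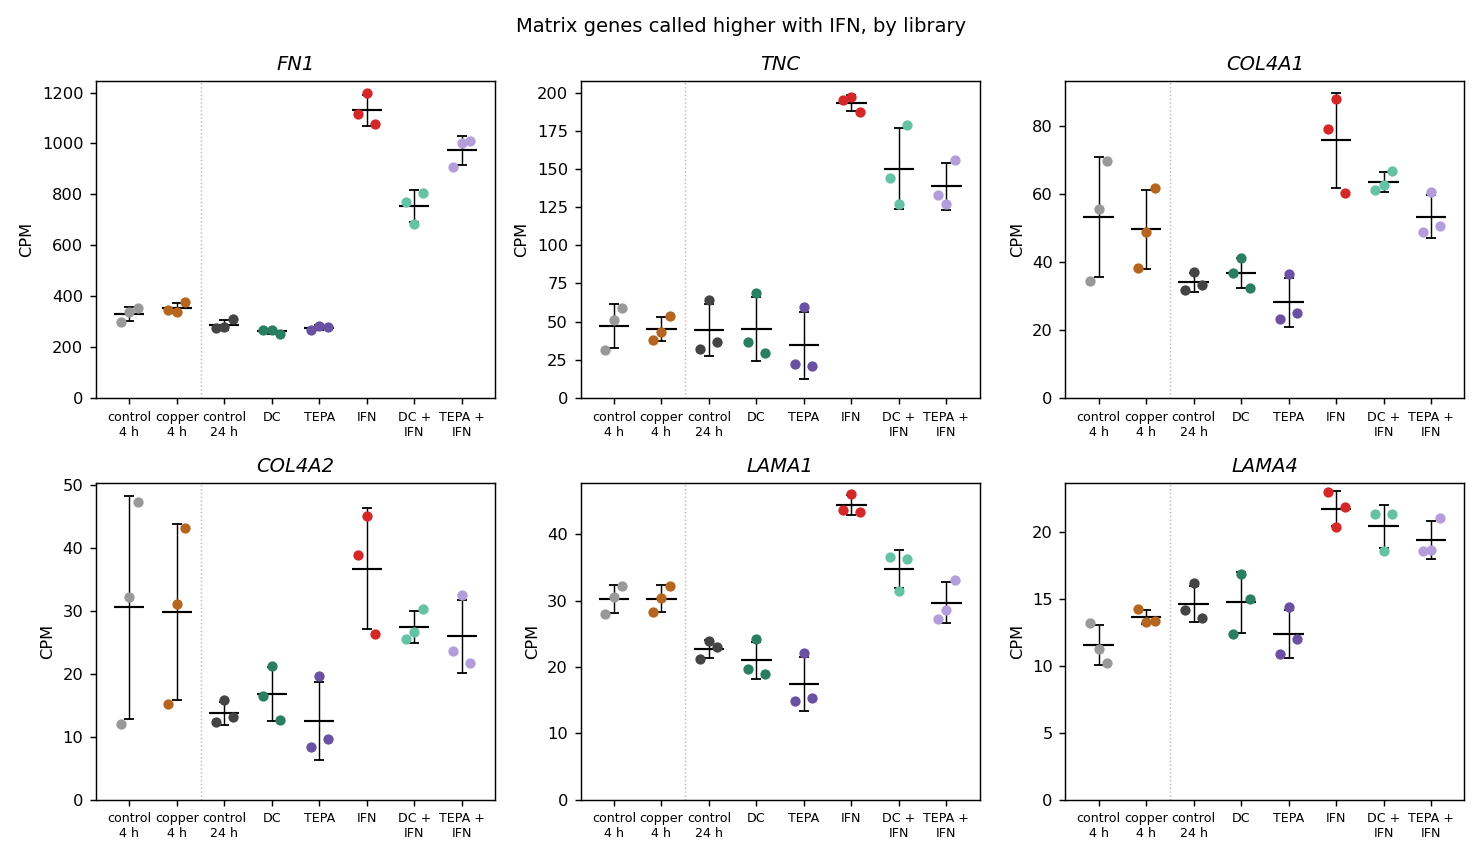
CPM of FN1, TNC, COL4A1, COL4A2, LAMA1 and LAMA4 in each library (points) with the group mean (line) and SD (bars), n = 3 libraries in each of the 8 groups. The IFN groups lie above the 24 h control in all 6 panels, with COL4A1 at 60.3 to 87.8 CPM and LAMA1 at 43.4 to 46.1 in the IFN group.

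COL4A1 and COL4A2 encode the alpha-1 and alpha-2 chains that form the common type IV collagen trimer, and they lie head to head on chromosome 13 with start sites 127 bases apart in RefSeq. COL4A1 had 31.7, 37.1 and 33.3 CPM in the 24 h control and 78.9, 87.8 and 60.3 with IFN. COL4A2 had 12.3, 15.8 and 13.2 CPM in the control and 38.9, 45.1 and 26.3 with IFN. Both were higher in every IFN library than in any 24 h control library, where 57.1% of all tested genes had no overlap between these groups. The 4 h control libraries held 34.5, 55.6 and 69.6 CPM of COL4A1 and 12.1, 32.3 and 47.4 of COL4A2. For both genes these values overlap the IFN libraries. COL4A1 rose by 1.15 ± 0.22 (adjusted p = 0.000946) and COL4A2 by 1.42 ± 0.42 (adjusted p = 0.0234). In DC, COL4A1 rose by 0.79 ± 0.22 (adjusted p = 0.024) and in TEPA by 0.92 ± 0.22 (adjusted p = 0.00709), while COL4A2 was not called, with differences of 0.71 (95% interval -0.16 to 1.57) and 1.05 (0.18 to 1.92). With the replicate number as a block shared by all 24 h groups, COL4A2 was called in TEPA at 1.08 ± 0.20 (adjusted p = 0.000506). That block also spans 24 h groups whose numbers do not pair by the rule used here.

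The transcripts of COL4A1 and COL4A2 hold 55.4% and 62% GC. Once the GC trend was removed, both were called in all 3 IFN comparisons with smaller differences, 0.65, 0.54 and 0.58 for COL4A1 and 0.48, 0.35 and 0.49 for COL4A2. Without it, single libraries decided several calls. The COL4A2 call with IFN was lost without 24 h control library 1 or 3 or IFN library 1 or 2 (adjusted p up to 0.108). The COL4A1 call in DC was lost without DC library 1 or 3 or any of the 3 libraries with DC and IFN (adjusted p up to 0.159). In TEPA it was lost without TEPA library 1 or 3 or library 2 with TEPA and IFN (adjusted p up to 0.072). Since GENCODE 29 places the ends of both genes over each other and the strand setting of the counting is not known, a small share of reads at these ends cannot be assigned.

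LAMA1 encodes the laminin alpha-1 chain, best known from embryonic basement membranes. Its level was 21.2, 23.9 and 23 CPM in the 24 h control and 43.6, 46.1 and 43.4 with IFN, about 20 CPM apart with little spread. LAMA1 rose by 0.97 ± 0.13 (log2, SE; adjusted p = 2.7e-05), by 0.73 ± 0.13 in DC (adjusted p = 0.000814) and by 0.76 ± 0.13 in TEPA (adjusted p = 0.000417). These calls held without any single library. Fits on the libraries of the comparison alone lost the call in TEPA (adjusted p = 0.0585) and, with a block, in DC (adjusted p = 0.0745).

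LAMA4, the laminin alpha-4 chain of vessels and nerves, was at 10.9, 14.4 and 12 CPM with TEPA and at 18.6, 18.7 and 21.1 with TEPA and IFN. It rose there by 0.64 ± 0.13 (adjusted p = 0.00172), by 0.57 with IFN against control and by 0.47 in DC. The call in DC was lost without DC library 1 or 3 or library 1 or 3 with DC and IFN (adjusted p up to 0.185). Fits on the libraries of the comparison alone lost the calls in DC (adjusted p up to 0.25) and in TEPA (adjusted p = 0.0516).

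LAMA3, the alpha-3 chain of epithelial laminin-332, moved the other way. With TEPA it had 3.75, 2.23 and 3.28 CPM, and with TEPA and IFN 0.698, 1.06 and 0.809, so that the groups were well apart. It fell by 1.84 on the log2 scale (SE 0.33, adjusted p = 0.000501), by 1.60 with IFN against control and by 1.55 in DC. The call in DC was lost in the blocked fit on its own libraries (adjusted p = 0.0555). LAMB3, the beta chain of that trimer, had only 66 counts over the 24 libraries and was not tested.

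LAMB1 and LAMC1, the beta-1 and gamma-1 chains found in most laminin trimers, differed little with IFN. LAMB1 had 611, 584 and 624 CPM in the 24 h control and 677, 694 and 606 with IFN, a log2 difference of 0.12 (95% interval -0.01 to 0.25). LAMC1 was at 529, 474 and 521 CPM with TEPA and at 443, 464 and 433 with TEPA and IFN. There it fell by 0.18 (SE 0.06, adjusted p = 0.0454), which did not hold without TEPA library 1 (adjusted p = 0.053). In the fit without the GC trend LAMC1 was called lower in all 3 IFN comparisons, by -0.20, -0.19 and -0.24. The median over all tested genes was itself below 0 there, at -0.09, -0.08 and -0.08. In that fit 3976, 2688 and 3335 of the 14654 genes were called lower. LAMB2, the beta-2 chain, spread from 5.99 to 34 CPM among the 4 h control libraries alone, and its IFN difference of 1.09 had a 95% interval of -0.01 to 2.19.

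Across the 7 laminin chains tested, 2 were called higher and 1 lower with IFN, where 10% and 8.8% of all genes were. The 9 basement membrane and network collagens had 2 called higher, the type IV chains, and 1 lower, COL8A2. Log2 differences with IFN ran from -1.60 to 1.34 among the laminin chains and from -1.05 to 2.21 among these collagens, whose mean levels lay between 0.357 and 49.3 CPM.

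LOX stood at 21.8, 20 and 21.5 CPM in the 24 h control and at 10.2, 10.4 and 14.4 with IFN (chromosome 5, 122063195 to 122078360, minus strand). The lowest 24 h control library was well above the highest IFN library. LOX fell by 0.86 (log2, SE 0.17, adjusted p = 0.00146), by 0.70 in DC (adjusted p = 0.0105) and by 0.77 in TEPA (adjusted p = 0.00429). No single library decided these calls, although the blocked fit on the libraries of the comparison alone lost the one in DC (adjusted p = 0.0568). They held without the GC trend, at -0.72, -0.67 and -0.68. SRFBP1 overlaps LOX on the opposite strand at a mean of 29.9 CPM, and how reads in the overlap were counted is not known.

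The copper chelators alone left LOX near its control, at 18.3, 18.7 and 22.2 CPM with DC and 19.6, 18.2 and 20 with TEPA. The log2 differences were -0.10 (95% interval -0.46 to 0.26) and -0.13 (-0.49 to 0.23). At 4 h, LOX was at 25.7, 19.1 and 15.9 CPM in the control and at 20.1, 17.6 and 15.9 with copper, a difference of -0.18 (-0.54 to 0.18). Falls in LOX RNA of more than 0.54 are thus outside these 3 intervals, and smaller ones are not resolved.

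**Figure D3:**
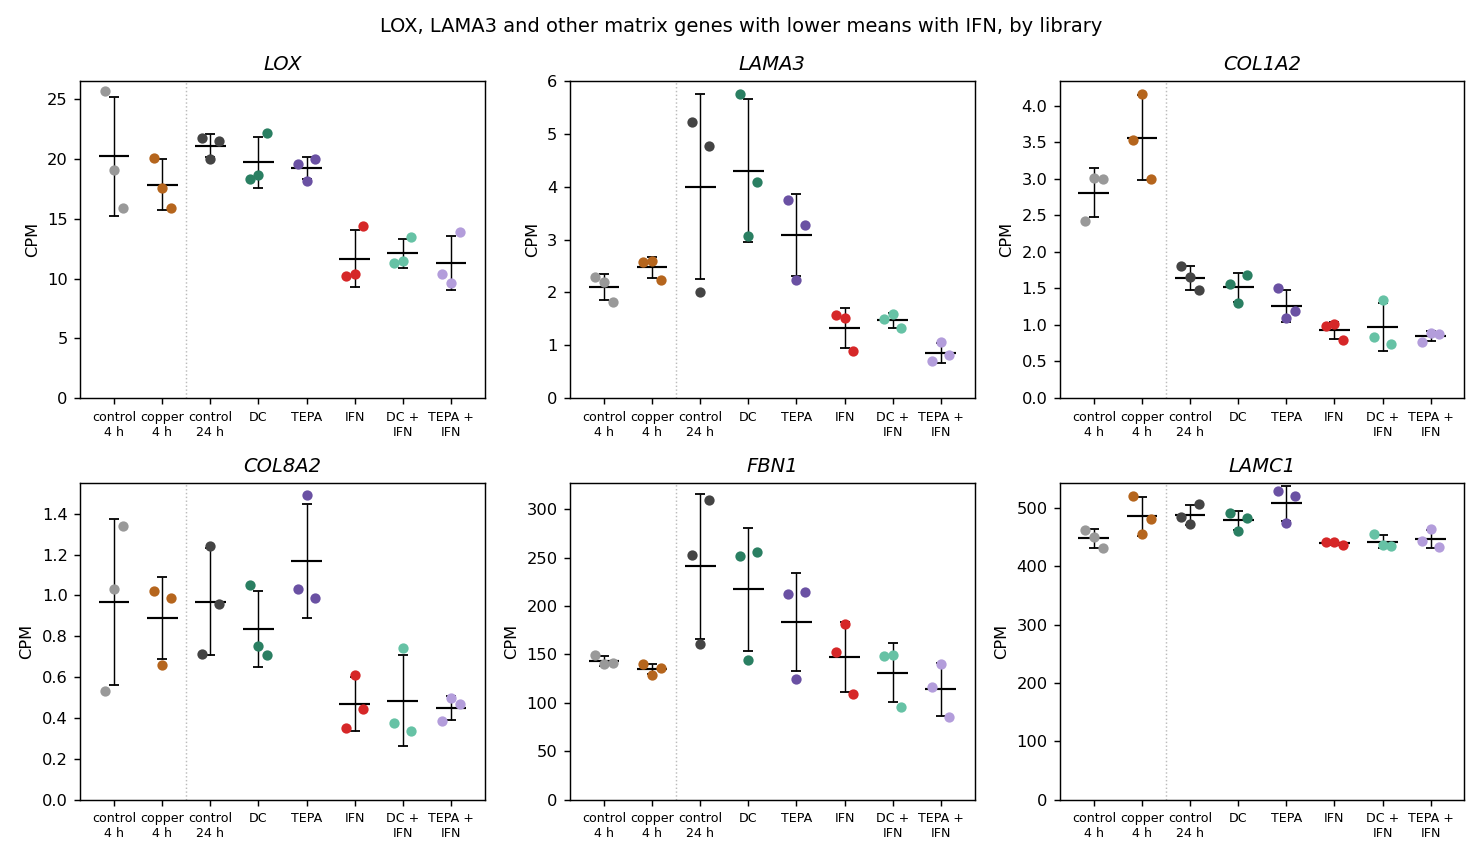
CPM of LOX, LAMA3, COL1A2, COL8A2, FBN1 and LAMC1 in each library (points) with the group mean (line) and SD (bars), n = 3 libraries in each of the 8 groups. LOX and LAMA3 are lower in the IFN groups than in the 24 h groups without IFN, while FBN1 overlaps between them.

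FBN1, the gene of fibrillin-1, is the case where means and test part ways. Its libraries held 253, 161 and 309 CPM in the 24 h control and 153, 181 and 109 with IFN, which overlap. The log2 difference of -0.71 (95% interval -1.27 to -0.14) had an adjusted p of 0.0707, and those in DC (-0.73) and in TEPA (-0.69) adjusted p of 0.109 and 0.102. FBN1 without the GC trend was called lower in all 3, by -0.68, -0.76 and -0.67.

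COL3A1, the type III collagen chain, carried nearly all of the fibrillar collagen RNA. It had 288, 275 and 301 CPM in the 24 h control and 310.4, 349 and 286 with IFN, with a log2 difference of 0.13 (95% interval -0.07 to 0.32). In DC the difference was 0.12 (-0.07 to 0.32) and in TEPA 0.20 (0.01 to 0.40, adjusted p = 0.167). COL1A2, the alpha-2 chain of type I collagen, was at 1.8, 1.65 and 1.48 CPM in the control and at 0.98, 1.01 and 0.794 with IFN. It fell by 0.82 (SE 0.22, adjusted p = 0.0118), and was not called in DC (-0.64, adjusted p = 0.0732) or in TEPA (-0.57, adjusted p = 0.0929). It was the one called gene of the 6 fibrillar collagens, beside 18.8% of all genes. Their log2 differences with IFN ran from -0.82 to 0.90.

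COL8A2, a short-chain network collagen known from corneal basement membrane, had 1.03, 1.49 and 0.986 CPM with TEPA and 0.384, 0.496 and 0.467 with TEPA and IFN. It fell there by 1.37 (SE 0.35, adjusted p = 0.0115) and by 1.05 with IFN against control. The first call was lost without library 1 with TEPA and IFN (adjusted p = 0.0517), and the second without 24 h control library 2 or 3 or any of the 3 IFN libraries (adjusted p up to 0.164).

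COL14A1 and COL22A1 encode FACIT collagens and were rare. COL14A1 had 0.0727, 0.288 and 0.235 CPM with DC and 1.21, 0.529 and 0.642 with DC and IFN. It rose there by 1.93 ± 0.50 (adjusted p = 0.0147) and by 1.34 with IFN against control. These rest on few reads, 19 and 65 counts in the DC groups and 34 and 81 counts in the 24 h control and IFN groups. The first call was lost without library 1 of either group (adjusted p up to 0.104) and in fits on these 6 libraries alone (up to 0.211), and the second without any one of the 24 h control libraries or IFN library 1 or 2 (adjusted p up to 0.145). COL22A1 had 0.0679, 0.134 and 0.029 CPM in the control (7 counts) and 0.385, 0.647 and 0.286 with IFN (38 counts). The 3 libraries in which COL22A1 reached the minimum count were all libraries with IFN, so it was tested only because it was higher there, and its values stand as a description. Of the 7 FACIT and transmembrane collagens tested, COL14A1 was called with IFN, where 18.8% of all genes were. The COL22A1 call is not set beside that share, since its test depended on its being higher there. Their mean levels lay between 0.17 and 10.7 CPM, and their differences with IFN ran from -0.72 to 2.47.

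**Figure D4:**
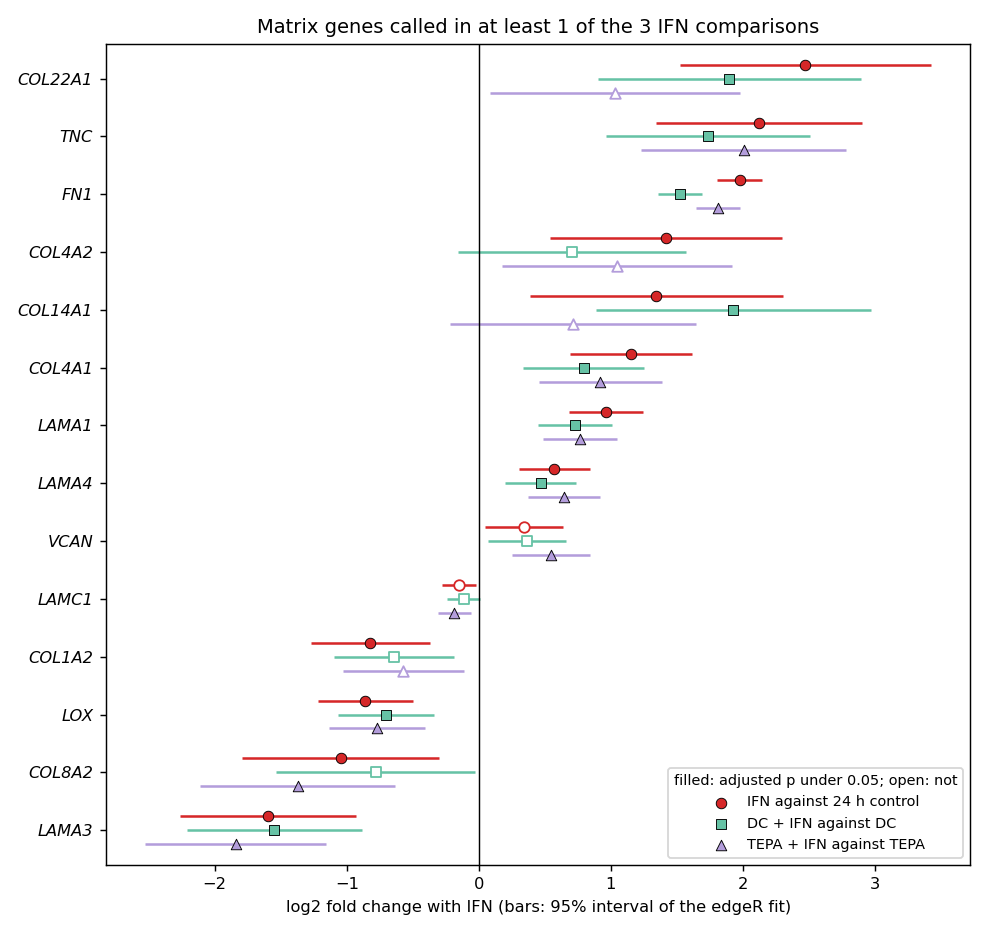
Log2 fold change with IFN (x axis) and its 95% interval for the 14 matrix genes called in at least 1 of the 3 IFN comparisons (COL22A1 passed the filter only through libraries with IFN), with filled symbols where the adjusted p is under 0.05. The 3 comparisons share no library, and each gene keeps its sign in all 3.

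GC content moved with the IFN comparison across the genes. Of the 38 tested genes, 15 have transcripts of over 60% GC. Their median log2 difference with IFN was 0.89, beside 0.13 for the other 23, and with the GC trend removed the medians were -0.10 and -0.05. COL18A1 and COL6A2 show it by library. COL18A1, the gene of the endostatin-bearing basement membrane collagen, had 0.577, 1.21 and 1.04 CPM in the 24 h control and 4.41, 6.18 and 2.57 with IFN. COL6A2, a chain of the beaded filament collagen VI, had 1.49, 2.48 and 1.39 CPM in the control and 6.9, 8.98 and 3.11 with IFN. Neither was called, and in the 4 h control, a single condition, COL18A1 alone ranged from 0.205 to 6.52 CPM. With the trend removed COL18A1 was called at 0.94 ± 0.36 (adjusted p = 0.0415). The tighter fit then called 19 of the 38 genes with IFN (12 higher, 7 lower) beside 38.8% of all genes. It called 19 in DC (10 higher, 9 lower) beside 27.1%, and 16 in TEPA (8 higher, 8 lower) beside 33.3%. Over all 14654 genes more were lower than higher in this fit. With IFN 1704 were called higher and 3976 lower, in DC 1284 and 2688, and in TEPA 1540 and 3335. How far the trend is technical was not tested.

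**Figure D5:**
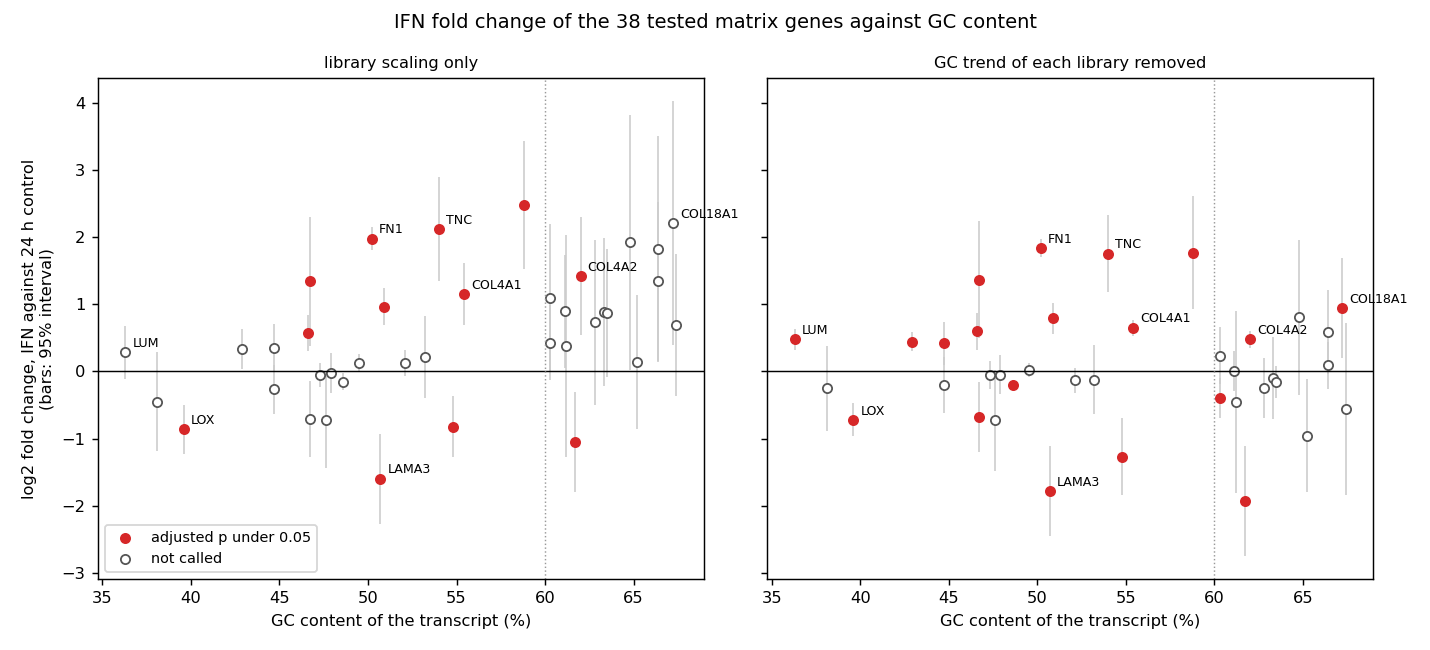
Log2 fold change of IFN against the 24 h control with its 95% interval (y axis) against the GC content of the transcript (x axis, percent) for the 38 tested matrix genes, with library scaling only (left) and with each library's GC trend removed (right). The genes right of the dotted line at 60% GC have a median of 0.89 on the left and -0.10 on the right, while FN1, TNC, LOX and LAMA3 stay apart from 0.

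Whether DC changed the matrix genes was asked with and without IFN. With DC alone, 0 of the 38 were called by edgeR, beside 0.0136% of all genes, and 1 had an unadjusted p under 0.05, beside 135 of all genes. DESeq2 also called 0. The median log2 difference of the 38 was 0.01, and the 95% interval reached 0.66 to either side in the median gene. FN1 with DC alone was 0.13 below the control on the log2 scale (95% interval -0.30 to 0.03). With DC and IFN, against IFN alone, FN1 fell by 0.59 (SE 0.08, adjusted p = 0.00216), from 1115, 1198 and 1077 CPM to 770, 683 and 805. The groups did not overlap, as for 8.05% of all genes, and the fold was 1.5. It was the only matrix gene called and one of 3 genes called in all (0.0205%). The call was lost without library 2 of either group (adjusted p up to 0.109) and when these 6 libraries were fitted on their own (up to 0.821 over the alternatives).

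The difference between the DC effects with and without IFN was tested itself. For FN1 it was -0.45 (95% interval -0.68 to -0.22, unadjusted p = 0.000628), and over all genes the adjusted p was 0.918, so FN1 is not shown to differ. In this interaction 0 of the 38 genes and 0.0% of all were called by edgeR and 0 of the 38 by DESeq2, with unadjusted p under 0.05 for 2 and 142 genes. The same holds for TEPA, where 0 of the 38 and 0.0% of all genes were called, with unadjusted p under 0.05 for 0 and 205.

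TEPA alone changed 1 of the 38 genes, beside 1.06% of all. COL6A6, a long collagen VI chain, was at 3.5, 4.94 and 3.5 CPM in the 24 h control and at 6.8, 7.93 and 7.28 with TEPA, which rose by 0.88 ± 0.17 (adjusted p = 0.0152). With TEPA and IFN against IFN alone, COL6A6 again rose, by 0.81 ± 0.18 (adjusted p = 0.0189), from 3.22, 3.02 and 3.69 CPM to 5.27, 5.13 and 7.07. These 2 comparisons share no library. With DC, COL6A6 was at 2.95, 3.95 and 3.4 CPM, and its difference from control of -0.21 had a 95% interval of -0.58 to 0.16. The first COL6A6 call was lost without 24 h control library 1 or 3 or TEPA library 2 or 3 (adjusted p up to 0.103), the second without IFN library 1 or 2 or library 3 with TEPA and IFN (up to 0.0995). Fits on the libraries of each comparison alone lost both (adjusted p = 0.239 and 0.101).

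LAMA1 was the other gene called for TEPA with IFN, where 2 of 38 were called beside 1.9% of all genes. It fell by 0.58 (SE 0.13, adjusted p = 0.0259), from 43.6, 46.1 and 43.4 CPM with IFN to 27.2, 28.6 and 33.1 with TEPA and IFN. Every library but the third with TEPA and IFN was needed for this call (adjusted p up to 0.187). With TEPA alone LAMA1 was at 14.9, 22.1 and 15.3 CPM, a difference of -0.38 (95% interval -0.66 to -0.10, adjusted p = 0.249). With the GC trend removed, 7 genes were called for TEPA (2 higher, 5 lower) beside 8.98% of all (639 higher, 677 lower). For TEPA with IFN 6 were called (1 higher, 5 lower) beside 13.2% of all (1046 higher, 886 lower). In both, COL4A1 (-0.41 and -0.48), COL4A2 (-0.45 and -0.44) and LAMA1 (-0.41 and -0.57) were then called lower and COL6A6 higher.

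Copper for 4 h changed none of the 38 genes by edgeR, beside 5.85% of all genes, with unadjusted p under 0.05 for 2, beside 2367 of all. DESeq2 called 1. LAMB1 was nearest to the threshold, at 599, 645 and 669 CPM in the 4 h control and 723, 742 and 755 with copper, without overlap (0.22 ± 0.06, adjusted p = 0.0536). Groups without overlap were found for 12.7% of all genes. Same-numbered libraries were taken to pair here by their correlations in these same data. With the replicate block LAMB1 rose by 0.22 ± 0.06 (adjusted p = 0.0123), where 15.6% of all genes were called. With the GC trend removed LAMB1 (0.23) and LAMC1 (0.14) were called, beside 21.2% of all genes. FN1 differed by 0.09 (95% interval -0.07 to 0.26), COL3A1 by -0.01 (-0.21 to 0.18) and COL4A1 by -0.11 (-0.56 to 0.35).

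The 24 h against the 4 h control gave 3 called genes beside 9.69% of all. These controls are separately labelled sets of libraries, so time cannot be told apart from any other difference between the sets. COL1A2 fell by 0.78 (SE 0.21, adjusted p = 0.0236), from 2.42, 3.01 and 3 CPM to 1.8, 1.65 and 1.48. COL9A2, a chain of the cartilage FACIT collagen IX, had 0.452, 1.42 and 1.66 CPM at 4 h and 0.306, 0.436 and 0.463 at 24 h, and fell by 1.55 (SE 0.45, adjusted p = 0.0357) although the groups overlap. VCAN had 872, 645 and 621 CPM at 4 h and 974, 862 and 1144 at 24 h, and rose by 0.48 ± 0.14 (adjusted p = 0.0382), also with overlap.

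Single libraries decide this comparison. Without 4 h library 1, whose GC difference was -1.337, 22 matrix genes were called beside 49.8% of all genes, and without 4 h library 2 or 3 or 24 h library 3 there were 0. The COL1A2 call was lost without 24 h library 3 or 4 h library 2 or 3 (adjusted p up to 0.0854). VCAN lost it without 24 h library 1 or 3 or 4 h library 2 or 3 (up to 0.184), and COL9A2 in all such fits but the one without 4 h library 1 (up to 0.192). With the GC trend removed 8 genes were called (3 higher, 5 lower) beside 26.8% of all (1797 higher, 2131 lower). VCAN was among the 8, at 0.31, but neither COL1A2 nor COL9A2.

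The genes that act on the matrix were followed in 6 lists. With IFN, 18.8% of all tested genes were called (10% higher and 8.8% lower). For list genes outside the 66, and for the list medians, values are from the fit with library scaling only. Their values with the GC trend removed or with libraries left out are not given here. Of 5 tested crosslinking enzymes, TGM2, the calcium-dependent tissue transglutaminase, was called higher and LOX lower in each of the 3 IFN comparisons. TGM2 went from a mean of 1.18 CPM in the 24 h control to 7.56 with IFN and rose by 2.67 ± 0.36 (adjusted p = 2.02e-05), by 2.26 in DC and by 1.80 in TEPA. The other copper-dependent oxidases LOXL2, LOXL3 and LOXL4, at means of 7.78, 10.5 and 1.01 CPM, were not called in any comparison.

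Of 22 tested genes of collagen synthesis and maturation, 1 was called higher and 2 lower with IFN, beside 10% and 8.8% of all genes. PCOLCE, an enhancer of procollagen processing, rose by 1.68 ± 0.49 (adjusted p = 0.023), while its relative PCOLCE2 fell by 0.46 (adjusted p = 0.00811) and the collagen chaperone FKBP14 by 0.46 (adjusted p = 0.0272). Mean PCOLCE was 128 CPM in the 4 h control, 56.3 in the 24 h control and 180 with IFN. In the same order PCOLCE2 had 13.1, 12.7 and 9.26 CPM and FKBP14 88.7, 116 and 83.9. The median of the list was 0.34, beside 0.01 for all genes. With copper COLGALT2, a collagen galactosyltransferase, rose by 0.86 ± 0.12 (adjusted p = 6.95e-05).

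Among 22 tested matrix receptors, 4 were called higher and 2 lower with IFN, beside 10% and 8.8% of all genes. The discoidin domain collagen receptor DDR1 rose by 1.24 ± 0.36 (adjusted p = 0.0227), and the syndecan SDC3 by 1.24 ± 0.31 (adjusted p = 0.00743). ITGA4, the alpha-4 integrin that binds fibronectin, rose by 0.74 ± 0.15 (adjusted p = 0.00127). Mean DDR1 was 20.9 CPM in the 4 h control, 9.48 in the 24 h control and 22.3 with IFN. In the same order SDC3 had 49.2, 28 and 66.4 CPM and ITGA4 16.1, 20.9 and 34.9. The list's median was 0.11. DDR2, the other discoidin domain receptor, was the one receptor called with copper, from a mean of 81.1 to 215 CPM, a rise of 1.41 ± 0.09 (adjusted p = 1.05e-08).

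Matrix proteases and their inhibitors were divided. Of 19 tested, 4 were called higher and 4 lower with IFN, beside 10% and 8.8% of all genes, and the median was 0.55. TIMP3, a matrix-bound metalloproteinase inhibitor, fell by 1.34 (adjusted p = 4.71e-06), from a mean of 63.7 to 25.2 CPM. PLAU, the urokinase gene, rose by 1.27 ± 0.32 (adjusted p = 0.00826), from a mean of 0.432 to 1.04 CPM. In the 4 h control the mean was 0.934 CPM for PLAU and 46.5 for TIMP3. With TEPA, CTSK, the collagen-cleaving cathepsin K, rose by 0.56 ± 0.13 (adjusted p = 0.0495).

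Of 8 other basement membrane genes tested, 1 was called with IFN, beside 18.8% of all genes, and the median was 0.24. This was AGRN, the agrin gene, which rose by 2.28 ± 0.69 (adjusted p = 0.027). Its mean was 7.42 CPM in the 4 h control, 2.26 in the 24 h control and 11 with IFN. The mean GC difference of these groups was 0.23, -0.71 and 0.46, and its part in the AGRN values was not tested. NID2, the laminin and collagen IV linker nidogen-2, fell by 0.51 with TEPA (adjusted p = 0.0411) and by 0.72 with TEPA and IFN against IFN (adjusted p = 0.00275). Of 18 tested genes of TGF-beta signalling, 1 was called higher and 1 lower with IFN, beside 10% and 8.8% of all genes. TGFBR1, the type I receptor, fell by 0.86 (adjusted p = 0.000654). The list's median was -0.01. TGFB3 fell with copper by 0.63 (adjusted p = 0.026). With DC alone, where edgeR called 2 genes in all, none was in the 6 lists, and ITGB1, TIMP2 and P4HB, each the most abundant of its list, stood at 1466, 576 and 242 CPM with DC beside 1536, 599 and 222 in the control.

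Several of these genes were called again where IFN was added to a chelator. TIMP3 fell by 1.02 in DC and by 1.4 in TEPA, the membrane metalloproteinase gene MMP16 by 0.88 and by 0.91, and TGFBR1 by 0.61 and by 0.77. PCOLCE2 fell by 0.42 and by 0.47. ITGA4 rose by 0.81 and by 0.65, and DDR2 by 0.40 and by 0.68. In DC the protease gene ADAMTS1 (0.70) and COLGALT2 (-0.40) were also called, and in TEPA FKBP14 (-0.47), SDC2 (-0.62) and LTBP2 (-0.62). Whether these effects differ between the chelators was not tested. ITGB8, an integrin subunit that binds latent TGF-beta, fell by 0.50 with TEPA and IFN against IFN. At 24 h against 4 h, PLAU fell by 1.12, the plasminogen activator gene PLAT by 0.96, ITGB8 by 0.57, COLGALT1 by 0.53, the syndecan SDC4 by 0.44 and SMAD3 by 0.42, while DDR2 rose by 0.52 and the netrin NTN4 by 0.77.

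Markers of other cell types were read beside the IFN results. All 12 fibroblast markers were tested, and their summed level was 751 to 894 CPM in the 24 h control libraries and 844 to 1017 with IFN. COL1A1, COL1A2, COL3A1, DCN and LUM are on this list and among the matrix genes, so this sum is no separate reading. The other 7 summed to 300.2 to 354 CPM and to 326 to 434. Of the 12, ACTA2, PDGFRB and TAGLN were called higher and COL1A2, FAP and S100A4 lower, beside 10% and 8.8% of all genes. The sum of 10 mesenchymal neuroblastoma markers was 1516 to 1547 CPM in the control and 1525 to 1567 with IFN, with FOSL2 called. The 12 adrenergic markers summed to 2685 to 2799.6 and 2596 to 2749.6 CPM. Among them CHGB was called higher, at 0.49 ± 0.14 (adjusted p = 0.017), and STMN2 lower, at -0.63 ± 0.13 (adjusted p = 0.00217). Schwann cell markers summed to 61.2 to 68.6 and 74.4 to 80 CPM, nearly all of it PMP22, with SOX10 near 0. PMP22 was called higher, at 0.23 ± 0.07 (adjusted p = 0.0227). Endothelial markers summed to 0.579 to 0.781 and 0.413 to 0.467 CPM. Leukocyte markers summed to 0.577 to 1.88 and 5.72 to 7.94 CPM, through CD68, which rose by 3.34 ± 0.60 (adjusted p = 0.000457), while CD3E was at 0 and PTPRC at a mean of 0.126 CPM with IFN. The part of these markers in the matrix results was not tested.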

How the data were processed

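RNA was extracted with an RNeasy mini kit and libraries were made with a TruSeq stranded mRNA kit, per the labels' protocols. STAR 2.5a, RSEM 1.2.31 and the build hg38 are named per the submitters' processing notes. The annotation release, strand setting and any filter are not given in the sources used here. The authors deposited whole-number read counts per gene symbol, not normalized, for 26485 symbols in 24 libraries. Symbols were matched to GENCODE 29 for position, length and GC content (23924, 90.3%, 25 of them through older symbols), and 93.8% of tested genes had a GC content. CPM per kb uses the length of 1 transcript per gene.

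With edgeR 4.0.16 (R 4.3.3), genes were filtered by filterByExpr (minimum count of 10), scaled by TMM and fitted with 1 mean per group over all 24 libraries (quasi-likelihood test, 16 residual degrees of freedom, common biological coefficient of variation 0.207). The 11 comparisons were adjusted over all 14654 genes. The script was tested on simulated data. DESeq2 1.42.0 was an alternative, beside no filter, removal of each library's GC trend (spline with 4 degrees of freedom), a replicate block, the libraries of a comparison alone, and each library left out in turn. Fits with 2 libraries left in a group assume that these vary like the other groups. All alternatives were fixed together with the design.

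Named are all genes called in any comparison, with the libraries of the comparison with the smallest adjusted p, or also of IFN; FN1, COL3A1, LOX, SPARC and the 15 most abundant members; and up to 3 called genes per list and comparison, or the most abundant where none was called. COL18A1 and COL6A2 were chosen after their values were seen. Members, lists and this rule were chosen with earlier results of these data known. A few genes that this rule names are not reported here.

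Replicate numbers are in the labels, with no stated meaning. In the fits on all 24 libraries, the block was shared by all groups of the same time. For 24 h against 4 h it was shared by all groups. At 24 h it thus also spans comparisons that do not pair by the rule below. They were taken to pair libraries where all 3 correlations of same-numbered deviations were over 0.1. These correlations come from the same data, with the GC trend left in. That was so for copper (0.866, 0.35, 0.817), DC (0.154, 0.55, 0.229), TEPA (0.363, 0.575, 0.232) and IFN in TEPA (0.294, 0.558, 0.226).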

Additional observations from a re-analysis of the deposited data

How the results depend on the processing

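The 38 called values of single genes kept their sign under each alternative run for them, 16 were called under all of these, and 21 kept their call without each library in turn. COL22A1, in 2 of the values, had 11 alternatives and the others 13. Its value with IFN is among the 16 and the 21, although it passed the filter only through libraries with IFN. Counts of called matrix genes moved more than single values. With the GC trend removed they were 2 for copper, 7 for TEPA, 19 for IFN, 6 for TEPA with IFN, 19 for IFN in DC, 16 for IFN in TEPA and 8 for 24 h against 4 h. With a replicate block they were 1 for copper, 25 for IFN, 14 for IFN in DC and 7 for 24 h against 4 h, beside 15.6%, 56%, 21.4% and 15.4% of all genes. With a replicate block and the GC trend removed they were 4, 7, 21, 8, 21, 18 and 9 in the order of the first list, beside 27.2%, 14.6%, 49.4%, 19.1%, 34.5%, 42.2% and 30.2% of all genes. With the libraries of each comparison alone they were 0 for TEPA, 20 for IFN, 0 for DC with IFN, 1 for TEPA with IFN and 0 for 24 h against 4 h, beside 0.0%, 47.8%, 0.00715%, 0.86% and 0.00725%. With these libraries alone and a replicate block they were 3 for copper, 2 for TEPA, 23 for IFN, 0 for DC with IFN, 14 for TEPA with IFN, 3 for IFN in DC and 0 for 24 h against 4 h, beside 18.3%, 1.78%, 51.7%, 0.0%, 19.7%, 3.97% and 0.0%. DESeq2 called 1 for copper and 10 for 24 h against 4 h, beside 5.51% and 12.4%. Without the filter on low counts, the calls of COL14A1 and COL8A2 with IFN, LAMC1 in TEPA and VCAN at 24 h against 4 h were lost, and DESeq2 lost COL8A2 with IFN and COL22A1 in DC. The causes of these differences were not tested. The block changed no other count by over 1.5 times in the comparisons that pair.

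With each library left out in turn, the counts ran from 0 to 1 for copper, 0 to 0 for DC, 0 to 1 for TEPA, 9 to 12 for IFN, 0 to 1 for DC with IFN, 0 to 1 for TEPA with IFN, 6 to 10 for IFN in DC, 8 to 13 for IFN in TEPA, 0 to 0 for both interactions and 0 to 22 for 24 h against 4 h. In the comparisons whose numbers do not pair the libraries by the rule, the correlations were -0.051, 0.266 and 0.087 for IFN, -0.015, -0.182 and -0.301 for DC with IFN, 0.068, 0.538 and 0.559 for TEPA with IFN, 0.094, -0.302 and -0.468 for IFN in DC, and 0.409, 0.371 and -0.177 for 24 h against 4 h. Depth limits the rare chains, such as COL22A1 with 121 counts in all.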
